A study of Danio rerio with 13 samples.

Results

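The zebrafish genome carries the glucagon gene as a pair of paralogs, gcga (ENSDARG00000079296) and gcgb (ENSDARG00000040907), and a related incretin gene, gip (ENSDARG00000071306). These 3 genes, taken by identifier from the 31901 gene identifiers of the count files, were followed in all 13 samples, together with the ratio of gcga to gcgb reads within each sample. In the RefSeq annotation of the GRCz12tu assembly gcga lies on chromosome 22, gcgb on chromosome 9 and gip on chromosome 12. The proglucagon genes encode precursors that are cut into glucagon, the hormone of pancreatic alpha cells that raises blood glucose, and into glucagon-like peptides, which in mammals are released mainly by cells of the gut. GIP, the glucose-dependent insulinotropic polypeptide, is an incretin made in mammals by K cells of the upper gut. In the mouse, Pax6 is needed for alpha cell formation and acts on the promoters of the glucagon and Gip genes.

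The study sequenced RNA of sorted endocrine cells from the embryonic pancreas (pancreatic endocrine cells, PECs) and from the larval gut (enteroendocrine cells, EECs), in wild-type fish and in fish lacking the transcription factor Pax6b. All samples were of the AB strain and carried the reporter Tg(pax6b:GFP)ulg515, and cells were selected by the activity of this pax6b reporter. The purity of the sorted cells was not tested here. PECs came from dissected dorsal pancreatic buds at 27 hpf (3 wild-type and 3 pax6b-/- samples), and EECs from dissected guts at 4 dpf (4 wild-type and 3 pax6b-/- samples). Each sample pooled many embryos or larvae, was sorted by FACS in consecutive rounds, and was amplified by Smart-seq2. The mutants were homozygous for the allele pax6b sa0086, came from crosses of heterozygous carriers of the reporter, and were picked by a missing or smaller lens. The study reports that it checked this choice after sequencing, by finding the sa0086 allele in all pax6b reads of mutant samples. Age, organ and dissociation enzymes all differed between PECs and EECs and cannot be told apart in a comparison of the tissues. In such bulk samples, fewer cells that express a gene and less RNA of it per cell cannot be told apart either.

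The samples held 22423938 to 61895597 counts on genes (median 33343637), so that 3 counts corresponded to 0.0485 to 0.134 CPM (counts divided by all counts on genes of a sample and scaled to 1000000). No sample duplicated another. The beta-cell markers (ins, nkx6.2 and mnx1, 3 of the 4 listed being matched) summed to 5943 to 14033 CPM in wild-type PECs, 151 to 187 CPM in mutant PECs, 1.82 to 11.0 CPM in wild-type EECs and 5.84 to 10.7 CPM in mutant EECs. The 5 enterocyte markers summed to 1101 to 1607 CPM in wild-type and 863 to 1482 CPM in mutant EECs, against 15.5 to 52.5 CPM in the 6 PEC samples. The 6 pan-endocrine markers summed to 6391 to 18668 CPM over all samples. Wild-type PEC replicate 3 stood apart from the other wild-type PECs in several genes described here, and its leave-out values are given beside the results that it moved most. The mutated gene pax6b itself was not lower in the mutants: its mRNA was at 3752 ± 1291 CPM in wild-type and 4830.0 ± 2355 CPM in mutant PECs, and at 641 ± 157 CPM in wild-type (n = 4) and 1250.0 ± 222 CPM in mutant EECs (SD, n = 3 elsewhere), so mRNA level was no check of the genotype labels. In EECs pax6b was called higher in the mutant (1.03 on the log2 scale, adjusted p = 0.0278, edgeR's quasi-likelihood test), a call lost without wild-type EEC replicate 1 (adjusted p = 0.105) and with wild-type EEC replicate 4 added (adjusted p = 0.102).

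gcga was read in every sample, over a narrower range than the other members. In wild-type PECs the 3 values were 967, 889.9 and 2655 CPM (mean 1504 ± 998, SD), with replicate 3 well above the others. In mutant PECs they were 2892, 2956 and 3546 CPM (3131 ± 361). All 3 mutant PEC values lay above all 3 wild-type values, by a small margin over wild-type replicate 3.

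In wild-type EECs gcga was at 1052, 1954, 2343 and 2133 CPM (1871 ± 568, n = 4). In mutant EECs it was at 1634, 892 and 1382 CPM (1303 ± 378, n = 3), a range that overlapped that of the wild type. The 95% Clopper-Pearson interval of the lowest gcga value, in wild-type PEC replicate 2, was 879 to 901 CPM, so counting error was small beside the spread between samples. By group mean the order of gcga was mutant PEC, wild-type EEC, wild-type PEC and mutant EEC, and the last 3 of these overlapped.

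gcgb ranged far more widely. Wild-type PECs held 11320.2, 9584 and 16399 CPM of gcgb (12435 ± 3542, SD, n = 3), from 280212 to 1015048 reads per sample. In mutant PECs the values were 19.7, 47.9 and 37.2 CPM (34.9 ± 14.3), from 687, 1165 and 1030 reads. Each mutant sample was thus below each wild-type sample by more than the whole spread within either group.

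The gut held less gcgb than the pancreas, and the mutant gut less again. The 4 wild-type EEC samples were at 163, 263, 49.99 and 159 CPM (159 ± 87.0), with replicate 3 the lowest. The 3 mutant EEC samples were at 2.76, 1.68 and 1.69 CPM (2.04 ± 0.618), from 143, 56 and 38 reads. These groups did not overlap, and the group levels of gcgb followed the order wild-type PEC, wild-type EEC, mutant PEC and mutant EEC, with each sample of a group above each sample of the next. The margin between the lowest wild-type EEC sample (49.99 CPM) and the highest mutant PEC sample (47.9 CPM) was small, and these groups were not tested against each other.

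gip was read almost only in the gut samples, and varied there over a wider range than either glucagon gene. Among wild-type EECs it was at 162, 51.9, 0.452 and 149 CPM (91.0 ± 77.9, n = 4). The value of replicate 3 rested on 14 reads (95% Clopper-Pearson interval 0.247 to 0.759 CPM) and lay 359-fold below that of replicate 1. Among mutant EECs gip was at 5.46, 127.0 and 6.47 CPM (46.3 ± 69.9, n = 3), with replicate 2 between wild-type replicates 2 and 4 and far above the other mutant samples.

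The 3 wild-type PEC samples held 1, 0 and 2 reads of gip, and the 3 mutant PEC samples held 0 reads each, so that gip in PECs was at or under the limit of 3 reads per sample throughout. The intervals and limits given for single samples cover counting error only, since these reads carry no molecular identifiers.

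**Figure D1:**
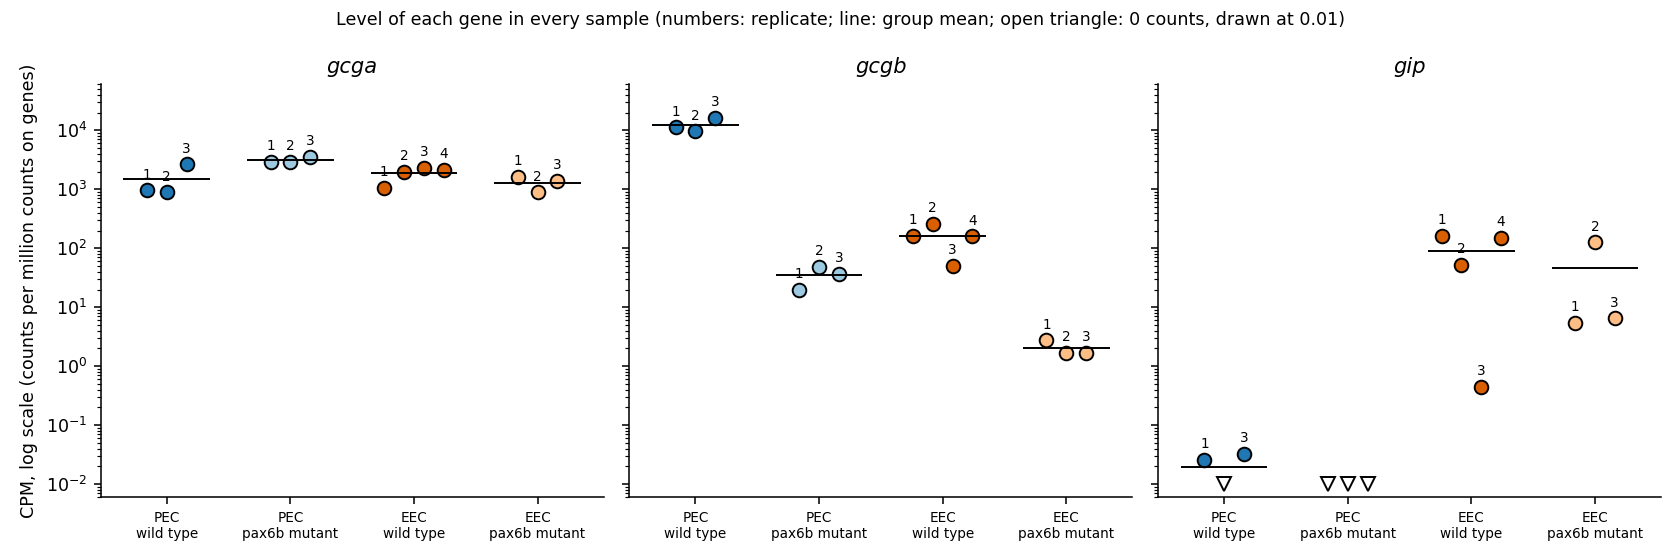
Level of gcga, gcgb and gip in each of the 13 samples, in CPM on a log scale, with one panel a gene. Points are samples numbered by replicate, lines are group means, and open triangles mark samples with 0 reads. gcga stays between 889.9 and 3546 CPM everywhere, gcgb runs from 16399 CPM down to 1.68 CPM, and gip lies at or below 2 reads in each PEC sample and from 0.452 CPM (wild-type replicate 3) to 162 CPM in EECs.

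The effect of pax6b loss in the pancreas was tested across 18698 genes with edgeR's quasi-likelihood test, and a gene was called at a Benjamini-Hochberg adjusted p below 0.1. Of all genes tested, 11.2% were called. gcgb was among them: it fell by 8.68 on the log2 scale (SE 0.46, adjusted p = 5.8e-07), a 409-fold lower level in the mutant. gcga was 0.91 higher on the log2 scale (SE 0.33), which is 1.88-fold, and was not called (adjusted p = 0.131). Without wild-type PEC replicate 3 the gcga difference was 1.40 with an adjusted p of 0.00298 by the same test, and with no filter on low counts it was 0.88 with an adjusted p of 0.0911, so the call of gcga depended on these settings. In the other 5 fits that left out 1 sample, gcga differed by 0.71 to 0.97 and was not called. The scaling mattered little to the direction but did set part of the size: going from plain library totals to edgeR's TMM scaling shifted all genes by -0.24 on the log2 scale in this comparison.

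In the gut, 4.18% of 18676 genes were called. gcgb fell by 6.30 on the log2 scale in mutant EECs (SE 0.61, adjusted p = 0.00146 in edgeR's quasi-likelihood test), to a level 78.9-fold lower. The log2 change of gcga was -0.53 (SE 0.30, adjusted p = 0.46) and that of gip -0.62 (SE 2.16, adjusted p = 0.939), and neither was called. The SE of gip shows how little 3 samples a group can say of it: an effect of several log2 units in either direction lay within its error. For gip in EECs, the estimate ran from -3.65 to 0.86 when single samples were left out, with the sign turning without wild-type EEC replicate 1.

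Wild-type EEC replicate 4 was kept out of these tests, since the study did not set it beside its mutants. With it included, gcgb in EECs was still called. Over all alternatives run, gcgb remained called in both tissues: its log2 change was between -8.98 and -8.38 in PECs (11 alternatives, highest adjusted p 0.000172) and between -6.71 and -5.75 in EECs (12 alternatives, highest adjusted p 0.0148).

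Whether the change differed between the tissues was tested as an interaction of genotype and tissue over 12 samples, in which 3.58% of 21067 genes were called. The fall of gcgb was smaller in EECs than in PECs by 2.40 on the log2 scale (SE 0.62, adjusted p = 0.0545 in edgeR's quasi-likelihood test), so it was called at the threshold of 0.1 and not at 0.05. The call was lost without mutant PEC replicate 1 (2.13, adjusted p = 0.12), without wild-type EEC replicate 1 (2.44, adjusted p = 0.102) and without mutant EEC replicate 1 (2.11, adjusted p = 0.152). For gcga the interaction was -1.42 on the log2 scale (SE 0.49, adjusted p = 0.188), which was not called. It was called without wild-type PEC replicate 3 (-1.91, adjusted p = 0.0211) and without wild-type EEC replicate 1 (-1.69, adjusted p = 0.0962). gip has no such value, because its reads in both PEC groups did not exceed the detection limit.

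**Figure D2:**
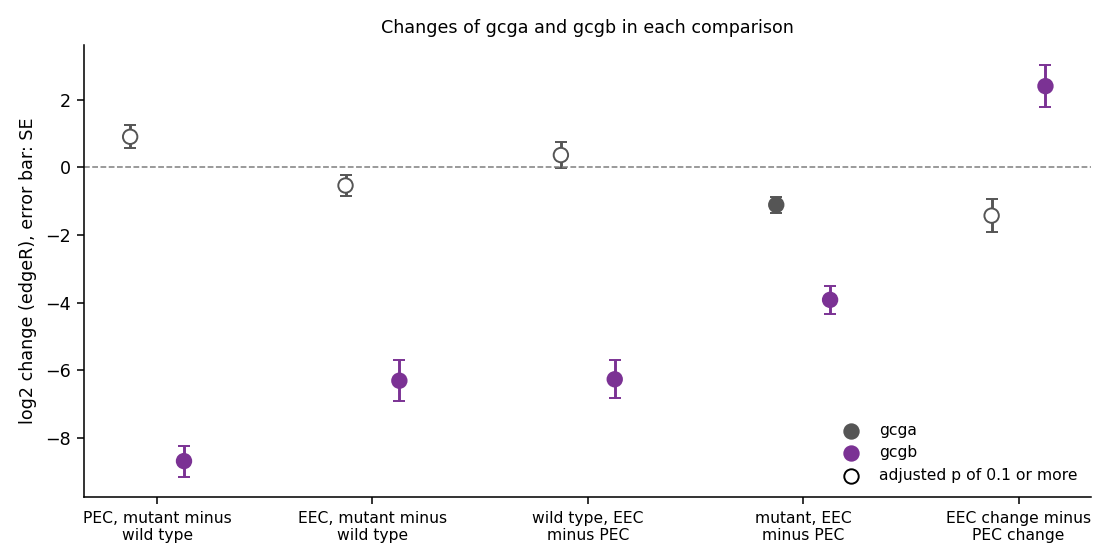
log2 changes of gcga and gcgb with their SE in the 5 comparisons, in edgeR's quasi-likelihood test. Filled points have an adjusted p below 0.1. gcgb is called in each comparison, from -8.68 in mutant PECs to 2.40 for the difference between the tissues, whereas gcga is called only between mutant EECs and mutant PECs, at -1.104.

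Between the tissues, wild-type EECs and PECs differed in 34.2% of 19302 genes. gcga was not among them, with a log2 difference of 0.37 (SE 0.38, adjusted p = 0.525). Without wild-type PEC replicate 3 this difference was 0.84 and was called (adjusted p = 0.0744, edgeR's quasi-likelihood test). The log2 difference of gcgb was -6.26 (SE 0.56, adjusted p = 6.38e-06), a 76.6-fold lower level in EECs.

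For gip, the 4 wild-type EEC samples held 15602 reads and the 3 wild-type PEC samples 3 reads. The pooled CPM was 4435-fold higher in EECs, with a counting interval of 1517 to 21508. Single EEC samples ranged from 19.5-fold (replicate 3, counting interval 5.45 to 106) to 7013-fold (replicate 1), and without replicate 1 the pooled ratio was 2680.2. No test of this difference is given, since gip passed the filter on low counts through the EEC samples alone.

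Between mutant EECs and mutant PECs, 40.3% of 18853 genes were called. Both glucagon genes were lower in mutant EECs, gcga with a log2 difference of -1.104 (SE 0.23, adjusted p = 0.00373) and gcgb with -3.91 (SE 0.41, adjusted p = 3.28e-05), both in edgeR's quasi-likelihood test. gip was at least 1255-fold higher in mutant EECs, counted against a limit of 3 reads over the pooled mutant PEC samples. This bound rested on mutant EEC replicate 2, which gave 4234 of the 4662 reads, and without it was 167-fold.

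The ratio of gcga to gcgb reads was computed within each sample and so does not depend on library size or on how other genes change. Gene lengths were not used here, so the ratio is one of reads, not of molecules, and only its differences between samples were read. In the 3 wild-type PEC samples there were 11.7, 10.8 and 6.18 gcgb reads per gcga read, and gcga made up 7.87%, 8.50% and 13.9% of the reads of both genes. In the 3 mutant PEC samples there were 147, 61.7 and 95.2 gcga reads per gcgb read, and gcga made up 98.4% to 99.3% of both. The pancreas thus went from mostly gcgb reads to nearly all gcga reads.

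In the gut, gcga reads prevailed in every sample. Wild-type EECs held 6.46, 7.43, 46.9 and 13.4 gcga reads per gcgb read, with replicate 3 the highest. Mutant EECs held 593, 531 and 816. On the log2 scale the mean ratio was -3.20 ± 0.50 in wild-type PECs, 6.57 ± 0.63 in mutant PECs, 3.72 ± 1.30 in wild-type EECs and 9.30 ± 0.32 in mutant EECs (SD, n = 4 for wild-type EECs and n = 3 for the others), with no overlap between any of these groups.

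The ratio was higher in the mutants by 7.68 on the log2 scale, taken as the mean of both tissues, and higher in 6 of 6 mutant samples than in any wild-type sample of the same tissue (two-sided exact permutation test, p = 0.00143, the smallest that the 700 assignments within tissue can give). In PECs alone the difference was 9.77 (exact permutation p = 0.1, the smallest that 3 against 3 allows, so 0.05 could not be reached). In EECs alone it was 5.58 (exact permutation p = 0.0286, the smallest that 4 against 3 allows). Between the tissues, the ratio was 6.92 higher in wild-type EECs than in wild-type PECs (exact permutation p = 0.0286) and 2.73 higher in mutant EECs than in mutant PECs (exact permutation p = 0.1), each the smallest p the design allows. The change with genotype was smaller in EECs than in PECs (difference -4.20). Exchanging genotype labels within each tissue gave an exact permutation p of 0.433 for this difference. Each tissue's own genotype difference widens the exchanged values there, so this p cannot decide whether the changes differed between the tissues. Leaving out any sample, or adding 1 read rather than 0.5 to both genes, moved the overall difference between 7.51 and 7.98 only. Adjusted by Benjamini-Hochberg over these 6 permutation tests, the p-values were 0.00858 for both tissues together, 0.0572 for EECs and for the wild-type tissues, 0.12 for PECs and for the mutant tissues, and 0.433 for the difference of changes.

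**Figure D3:**
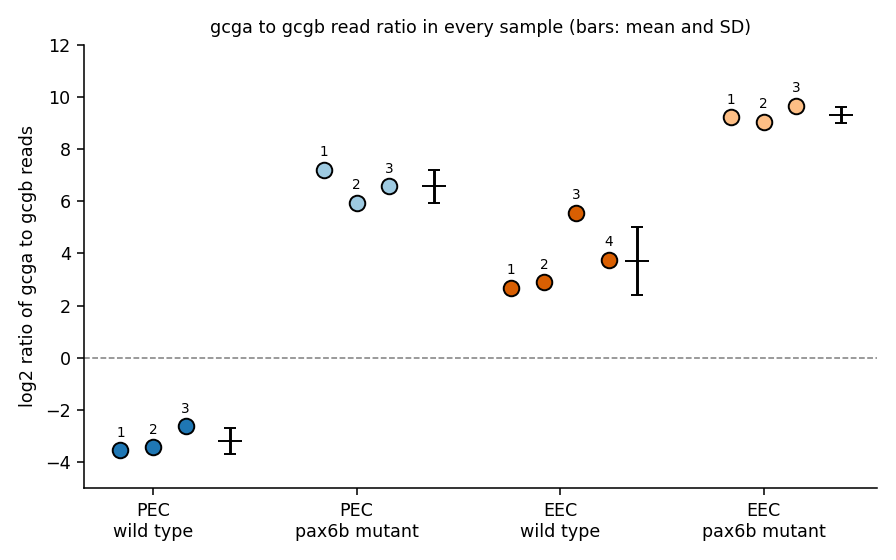
log2 ratio of gcga to gcgb reads in each of the 13 samples, with the mean and SD of each group beside its points and numbers for replicates. The dashed line marks equal reads. Wild-type PECs lie below it, from -3.55 to -2.63, and all other samples above it, from 2.69 in wild-type EEC replicate 1 to 9.65 in mutant EEC replicate 3.

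The level of ins, the insulin gene of beta cells, was set beside gcgb in each sample. In wild-type EECs ins was at 1.79, 0.774, 0.485 and 0.194 CPM, and these samples held 91.0, 340, 103 and 821 gcgb reads per ins read. In the 3 wild-type PEC samples, with ins at 5532, 12991 and 13640 CPM, the same ratio was 2.05, 0.738 and 1.202. The 4 wild-type EEC values lay above all 3 wild-type PEC values. The gcgb to ins ratio of pancreatic cells at the age of the gut samples was not measured.

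In mutant EECs ins was at 5.76, 1.05 and 0.312 CPM (299, 35 and 7 reads), with 0.478, 1.60 and 5.43 gcgb reads per ins read, against 0.204 to 0.721 in mutant PECs. Mutant EEC replicate 1, which had the most ins, lay inside the mutant pancreatic range, and replicates 2 and 3 lay above it. The part of pancreatic cells in the 38 to 143 gcgb reads of the mutant gut samples was not tested, nor was the part of gcga reads assigned to gcgb, of which these samples held 1 for each 531 to 816 gcga reads.

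**Figure D4:**
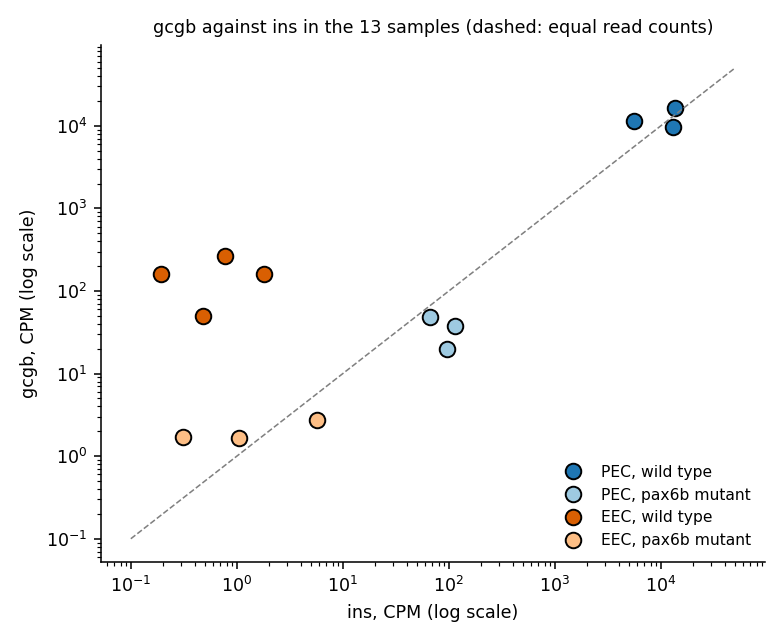
gcgb against ins in the 13 samples, both in CPM on log scales, with the dashed line at equal reads. PEC samples hold 0.204 to 2.05 gcgb reads per ins read. The 4 wild-type EEC samples lie 91.0 to 821 times above it, and the 3 mutant EEC samples hold 0.478 to 5.43 gcgb reads per ins read.

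The precursors of these hormones need to be cut and finished by other enzymes. Of a list of 7 genes tied to this processing or to the released peptides (pcsk1, pcsk2, pcsk1nl, scg5, cpe, pam and dpp4), 1 was called higher and 1 lower in mutant PECs, with a median log2 change of -0.05 against 0.02 for all genes tested, and 0 higher and 1 lower in mutant EECs (median -0.11 against 0.02), where 11.2% and 4.18% of all genes were called. Without wild-type PEC replicate 3 the PEC counts were 3 higher and 0 lower, when 3873 genes in all were called against 2089 with it kept. dpp4 was among these 3 (1.155, adjusted p = 0.0722 in edgeR's quasi-likelihood test). In EECs 1 of the 7 had an unadjusted p below 0.05 and a higher level, and DESeq2 called 0 higher. The gene called lower in both tissues by edgeR was pcsk2, which DESeq2 called lower in EECs only, the convertase that releases glucagon in alpha cells. In EECs pcsk2 was at 198, 240, 206 and 10.8 CPM in the wild type and at 96.3, 75.2 and 51.4 CPM in the mutant. Its log2 change was -1.59 for replicates 1 to 3 of the wild type against the mutant (adjusted p = 0.00649 in edgeR's quasi-likelihood test, and at most 0.0341 with any of these samples left out). With wild-type replicate 4 added, the lowest of all 7 samples, the change was -1.19 and was not called (adjusted p = 0.575), and the groups overlapped.

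In PECs pcsk2 was at 55.8, 101 and 715 CPM in the wild type and at 102, 49.8 and 19.3 CPM in the mutant. Its log2 change of -2.42 (adjusted p = 0.0687, edgeR's quasi-likelihood test) was -0.84 without wild-type replicate 3 (adjusted p = 0.322), and the groups overlapped. The call was lost in 5 of the 6 fits that left out 1 sample, the exception being wild-type PEC replicate 1. pam, which amidates the ends of peptides, was at 62.6, 52.7 and 171 CPM in wild-type and 274, 352 and 136 CPM in mutant PECs, a log2 change of 1.27 (adjusted p = 0.0763), and 1.79 without wild-type replicate 3 (adjusted p = 0.0116). The call of pam was lost without wild-type PEC replicate 1 or 2 or mutant PEC replicate 1 or 2. pcsk1, the convertase that in mammals releases glucagon-like peptides, was at 30.6, 29.5 and 113 CPM in wild-type and 199, 148 and 32.8 CPM in mutant PECs, and was not called (1.01, adjusted p = 0.335). Without wild-type PEC replicate 3 the difference was 1.72 and was called (adjusted p = 0.0703). In EECs pcsk1 ranged from 14.8 to 37.4 CPM in the wild type and from 31.7 to 94.4 CPM in the mutant (1.05, adjusted p = 0.175). Between wild-type EECs and PECs, where 34.2% of all genes were called, 1 of the 7 was called, pam, at 427 to 666 CPM in EECs (log2 difference 2.56, adjusted p = 0.000282). Without wild-type PEC replicate 3 it was 3.06, and 3 of the 7 were called, dpp4 and pcsk2 among them. The log2 difference of pcsk2 was -0.23 (adjusted p = 0.835, edgeR's quasi-likelihood test) with all samples kept. It was 1.32 (adjusted p = 0.0073, same test) without that replicate. In that fit 7046 genes in all were called, against 6602 with that sample kept. With wild-type EEC replicate 4 added and all PEC samples kept, the pcsk2 difference was -0.63 and was not called (adjusted p = 0.676, edgeR's quasi-likelihood test).

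Of 5 receptor genes of the family, 3 were matched by symbol (gcgra, gcgrb and gipr) and 1 was high enough to test. gcgra, a glucagon receptor, was at 41.2, 53.8 and 51.6 CPM in wild-type PECs and at 0.716, 1.40 and 1.12 CPM in mutant PECs. It fell by 5.75 on the log2 scale (adjusted p = 2.04e-06, edgeR's quasi-likelihood test, and at most 0.000147 with any sample left out). In EECs it was at 0.969 to 2.32 CPM in the wild type and at 9.43, 3.33 and 3.52 CPM in the mutant, 1.81 higher, with no overlap between the groups, and not called (adjusted p = 0.165), whereas DESeq2 called it higher. The change differed between the tissues (interaction 7.58, adjusted p = 1.65e-05). gcgrb did not exceed 0.178 CPM and gipr did not exceed 0.655 CPM in any sample.

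Transcription factors listed here as regulators of glucagon or Gip genes numbered 25, of which 22 were matched. Whether each acts on gcga, gcgb or gip was not tested. In mutant PECs 8 of the 21 tested were called higher and 4 lower (median log2 change 0.67 against 0.02 for all genes, of which 11.2% were called). The study had named pdx1, neurod1 and rfx6 among the factors changed in the same data. The counts of this list, here and in EECs, are therefore no independent evidence.

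pax6a, the paralog of the mutated gene, rose in mutant PECs from 3.18, 2.33 and 1.87 CPM to 25.5, 20.1 and 17.2 CPM (2.83, adjusted p = 0.000654, edgeR's quasi-likelihood test). pdx1, a factor of beta cells and of the gut lining, fell from 1001, 1040.4 and 1354 CPM to 25.1, 20.7 and 45.4 CPM (-5.44, adjusted p = 2.24e-06). Among the others called higher were foxa2, gata6, insm1b, neurod1, nkx2.2a and rfx6, and the others called lower were cdx1b, cdx4 and fev. With 1 sample left out, the call of neurod1 was lost in 5 of 6 fits and that of nkx2.2a in 4, while foxa2 lost its call in 1, the fit without wild-type PEC replicate 2. With single samples left out, the counts of this list ranged over 5 to 8 higher and 3 to 4 lower.

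In mutant EECs 6 of the 22 factors tested were called higher and 2 lower (median log2 change 0.34 against 0.02 for all genes, of which 4.18% were called). pdx1 fell in the gut as well, from 397, 356, 471 and 649.9 CPM in the wild type to 22.6, 28.4 and 68.4 CPM (-3.45, adjusted p = 0.000601, edgeR's quasi-likelihood test). etv1, an ETS-family factor, fell from 328, 260.3, 222 and 296 CPM to 78.5, 74.0 and 71.8 CPM (-1.91, adjusted p = 0.000816). Its change differed between the tissues (interaction -2.01, adjusted p = 0.00178), and in PECs it was not called (0.12, adjusted p = 0.846).

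Those called higher in mutant EECs were pax4, pax6b, insm1a, neurod1, nkx2.2a and rfx6. With single samples left out, the calls of neurod1, rfx6, nkx2.2a and pax6b were each lost in at least 1 fit. Their highest adjusted p there was 0.254, 0.184, 0.119 and 0.105 in edgeR's quasi-likelihood test, while pax4 and insm1a kept their calls. pax4, a paired-box factor, went from 139 to 227 CPM in the wild type to 410.1, 665 and 746 CPM (1.70, adjusted p = 0.00431, edgeR's quasi-likelihood test). Without wild-type EEC replicate 1 the list held 2 higher and 2 lower, and without mutant EEC replicate 2 it held 3 higher and 2 lower.

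Other genes listed as alpha cell markers did not follow gcgb together. Of 4 markers listed, 2 were called higher in mutant PECs, scinlb among them, and 2 lower, fev and pnoca. By double labelling the study found scinlb in both alpha and epsilon cells, and it describes fev as high in pancreatic endocrine cells. These 2 genes therefore do not mark alpha cells alone. scinlb, a gelsolin-related gene, went from 23.2, 18.2 and 178 CPM to 1185, 1438 and 755 CPM (3.88, adjusted p = 0.00276, edgeR's quasi-likelihood test, and 5.41 without wild-type replicate 3, adjusted p = 1.09e-05). pnoca, a precursor of an opioid-like peptide, was at 29.0, 11.9 and 342 CPM in wild-type PECs and at 9.05, 7.61 and 17.1 CPM in mutant PECs (-3.53, adjusted p = 0.0238, and -1.21 without wild-type replicate 3, adjusted p = 0.0882). The calls of fev and pnoca were lost without wild-type PEC replicate 1, mutant PEC replicate 1 or mutant PEC replicate 2. A longer list of alpha cell genes was taken from the study, which had drawn it from earlier published RNA-seq work. The study had counted this list in the same data, so the counts here are no independent evidence of a direction. The genes gcga and gcgb were removed from the list. It had 45 members tested in PECs, of which 6 were called higher and 11 lower in the mutant (median -0.11). In EECs 43 were tested, of which 6 were higher and 2 lower. Of all genes, 11.2% and 4.18% were called. Without wild-type PEC replicate 3 the 6 and 11 of PECs kept their calls, when 3873 genes in all were called. Further members were then called higher and no further one lower. Among them were vill (2.79, adjusted p = 0.0424) and ABCC5 (1.48, adjusted p = 0.00537), both in edgeR's quasi-likelihood test. With another sample left out, odc1, foxo1a, slco5a1a and slc25a14 each lost their PEC call in at least 1 fit, as did fev and pnoca. In EECs the calls of rgs5a, ABCC5 and SPRY2 were likewise lost in at least 1 fit.

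Markers of other endocrine cell types also changed in PECs, though not all in the direction of gcgb. All 3 beta-cell markers matched and all 5 delta-cell markers were called lower in the mutant, and all 3 epsilon-cell markers were called higher, where 11.2% of all genes were called. The study had reported most of these markers as changed in the same data. These counts are therefore no independent evidence of a direction. The calls of mnx1 (-0.90, adjusted p = 0.0651) and ghrl (1.41, adjusted p = 0.0946) were each lost in 5 of the 6 fits that left out 1 sample, the exception being wild-type PEC replicate 3, without which they were -1.11 (adjusted p = 0.0117) and 0.96 (adjusted p = 0.0319) in edgeR's quasi-likelihood test. The delta-cell markers summed to 42269 to 59343 CPM in wild-type and 7260 to 10546 CPM in mutant PECs, and the epsilon-cell markers to 279 to 1105 CPM and 2303 to 3610 CPM. Their part in the level of gcga and gcgb in CPM was not tested. The gcga to gcgb ratio does not depend on the share of counts taken by other genes. The part of changed cell numbers in that ratio was not tested either. In EECs 0 of the 3 beta-cell markers were called by edgeR or by DESeq2, 1 of them being lower at an unadjusted p below 0.05, and 1 of the 5 delta-cell markers, sst2, was called higher (adjusted p = 0.0347), a call lost without wild-type EEC replicate 2 or mutant EEC replicate 2. By edgeR 4.18% of all genes were called in EECs. DESeq2 called sst2 higher and sst1.1 lower.

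gip was set beside other hormone genes of the gut in the same 7 EEC samples. The first set, ghrl, mlnl, pyya, ccka and nmbb, are hormones of the intestinal bulb, as is gip. The genes ghrl, encoding ghrelin, and mlnl, a motilin-like gene, were called higher in mutant EECs (2.11 with adjusted p = 0.000601 and 2.41 with adjusted p = 0.000532, edgeR's quasi-likelihood test). pyya was called lower (-0.97, adjusted p = 0.0855), a call lost in 5 of the 6 fits that left out 1 sample, the exception being wild-type EEC replicate 1, and lost with wild-type replicate 4 added (-1.80, adjusted p = 0.156). ccka and nmbb were not called. ccka, the cholecystokinin gene, was at 5547, 7559.8, 3651 and 6332 CPM in the wild type and at 6248, 6782 and 5355 CPM in the mutant. ccka was lowest in wild-type replicate 3 as well, over a far narrower range than gip.

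Of the hormones of the mid and posterior gut, insl5a (an insulin-like peptide), galn (galanin) and vipb (vasoactive intestinal peptide), 0 of 3 were called in mutant EECs by edgeR's quasi-likelihood test, where 4.18% of all genes were called. At an unadjusted p below 0.05, 2 of them were lower, and DESeq2 called 2 lower, galn and vipb. galn was at 370.2, 475, 1217 and 953 CPM in the wild type and at 28.3, 0.180 and 0.624 CPM in the mutant (-6.20, adjusted p = 0.334, edgeR's quasi-likelihood test), with no overlap between the groups. vipb was at 176, 489, 1342 and 1397 CPM against 105, 241 and 139 CPM (-2.13, adjusted p = 0.32). Both galn and vipb, and insl5a at 7416 and 7926 CPM, were higher in wild-type replicates 3 and 4 than in replicates 1 and 2, whereas gip was low in replicate 3 alone. Wild-type EEC replicate 3 was also the lowest in gcgb and the highest in gcga of its group.

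**Figure D5:**
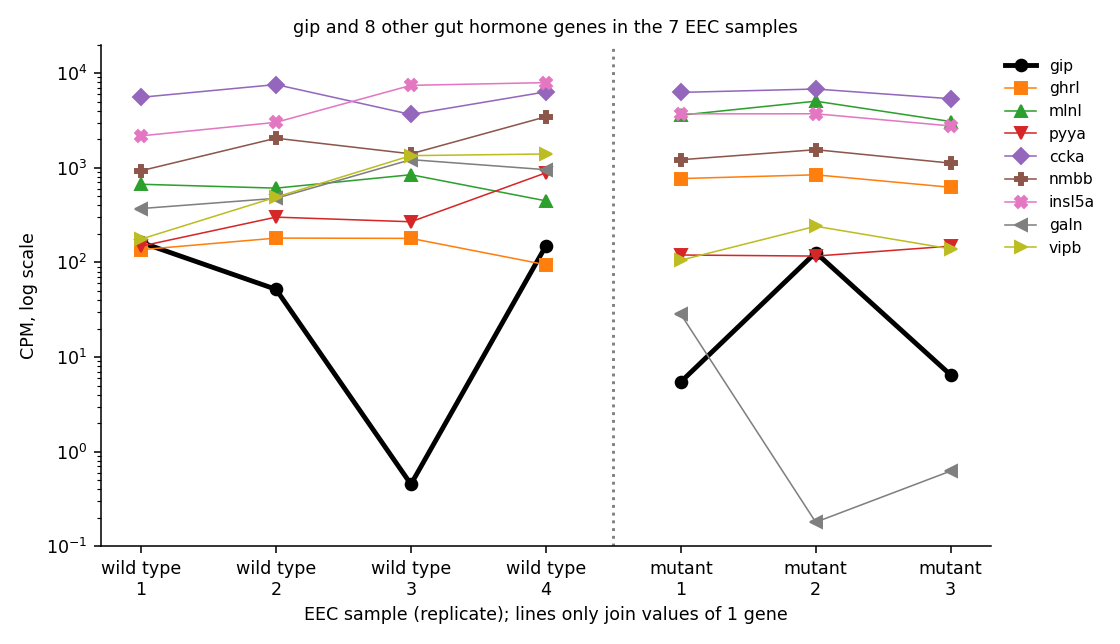
gip and 8 other gut hormone genes in the 7 EEC samples, in CPM on a log scale. Lines join the values of a gene within a genotype and carry no order of time or dose. gip runs from 0.452 CPM in wild-type replicate 3 to 162 CPM in wild-type replicate 1, and galn from 1217 CPM in the wild type to 0.180 CPM in mutant replicate 2.

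The genes whose levels ran most nearly in parallel with each member were found by Pearson's r of log2(CPM + 1), among 10040 genes with a mean of at least 10 CPM in some group. These coefficients describe samples that share genotype, tissue and library, so they carry no test. Over the 13 samples gcgb was most like slc26a2 (r = 0.975), a sulfate transporter, then abhd15a and dclk2a (0.97 each), si:dkey-175g6.2 (0.961) and fap (0.956). slc26a2 was at 40.4, 29.4 and 23.6 CPM in wild-type PECs and at 2.09, 2.59 and 1.63 CPM in mutant PECs, and at 3.94 to 9.94 CPM in wild-type and 0.268 to 0.906 CPM in mutant EECs. Its range was narrower than that of gcgb, and its levels are a description, since it was chosen for its likeness to gcgb. Over the 7 EEC samples alone, gcgb was most like stoml3b (0.983), etv1 (0.982), slc26a2 (0.981), si:zfos-2372e4.1 (0.978) and olfm1b (0.973).

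gcga was most like slc35b2 (0.957), cpt1ab (0.94), rps6kal (0.879), paox1 (0.871) and VPS41 (0.862) over the 13 samples. In the EECs it was most like gstp1 (0.998), TMEM14C (0.986), gstt1b (0.978), HEBP2 (0.969) and slc35b2 (0.954). slc35b2, present in both sets, was at 6.51, 7.73 and 17.0 CPM in wild-type PECs and at 20.3, 20.5 and 19.3 CPM in mutant PECs. Wild-type replicate 3 was the highest of its group, which is a description, since slc35b2 was chosen for its likeness to gcga.

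gip was most like camk1ga (0.938), ACACA (0.934), alpk3b (0.901), il17rc (0.9) and gbgt1l3 (0.895) over the 13 samples, and in the EECs most like GGCX (0.969), si:ch73-237c6.1 (0.965), camk1ga (0.964), loxl3b (0.943) and ATP2C1 (0.939). camk1ga, a calmodulin-dependent kinase gene, was at 14.4, 11.1, 4.33 and 19.6 CPM in wild-type EECs and at 5.03, 18.8 and 5.49 CPM in mutant EECs, so its low and high samples were those of gip, and it was at or below 0.182 CPM in PECs. These levels too are a description, since camk1ga was chosen for its likeness to gip. Among the members themselves the coefficients over 13 samples were -0.13 for gcga with gcgb, -0.383 for gcga with gip and -0.322 for gcgb with gip. Over the 7 EEC samples they were 0.456, -0.482 and 0.343, so the sign for gcgb with either of the others depended on the samples taken.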

How the data were processed

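Reads were mapped by the authors to GRCz11 (Ensembl release 92) with STAR 2.5.4b, and the deposited values are the raw counts per gene of its GeneCounts mode, with no normalization. Reads that fit both gcga and gcgb may be lost or misassigned, and antisense overlap was not checked. Each sample is a separate sorted pool, and p-values measure the spread between pools.

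Genes were tested with edgeR 4.0.16 (filterByExpr, TMM, robust quasi-likelihood fit, Benjamini-Hochberg adjustment over all tested genes, threshold 0.1) under R 4.3.3. Each SE of a log2 change is the size of that change divided by the square root of edgeR's F value. The study used DESeq2, here an alternative (1.42.0). Wild-type EEC replicate 4 entered levels, ratios and 1 alternative only. The ratio had 0.5 added to both counts and was tested by exact permutation over samples. The fits were also run on simulated counts with known changes, all smaller than those of gcgb. The outcome of that run is not given here. Symbols came from the study's tables (5831 identifiers) or the reference list (23437), and 117 of 131 listed symbols matched, glp1r and glp2r not being among them. Alternatives were DESeq2, other size factors, no low-count filter and a replicate block. Further ones were the 12 samples without wild-type EEC replicate 4 in 1 fit, a threshold of 0.05 and leaving out each sample. The genes named are the 3 members, listed genes that were called or that a sentence turns on, and the 5 genes most like each member. The members, lists and rules were chosen with earlier results of these data known. Some members of the lists are not reported by name here.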

Additional observations from a re-analysis of the deposited data

Results flagged for a closer look

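One result met a rule for a closer look, because the genotype effect differed between the tissues. The fall of gcgb in pax6b mutants was smaller in EECs than in PECs by 2.40 on the log2 scale (SE 0.62, adjusted p = 0.0545 in edgeR's quasi-likelihood test, 12 samples). The wild-type level from which gcgb fell also differed, at 159 ± 87.0 CPM in EECs (n = 4) and 12435 ± 3542 CPM in PECs (SD, n = 3). Dixon's criterion flagged no sample of the 4 wild-type EECs in gcga, gcgb, gip or the gcga to gcgb ratio. For gip it was computed on CPM, where replicates 1, 2 and 4 spread from 51.9 to 162 CPM. With that spread no low value, however small, could have been flagged. The criterion therefore cannot decide whether gip in replicate 3, at 0.452 CPM, stood apart.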

How the results depend on the processing

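In all alternatives run, gcgb kept its direction and its call in both mutant comparisons and both tissue comparisons. The gcga to gcgb ratio did so for the difference over both tissues, for which alone its alternatives were run. Others changed. For gcga in mutant PECs, dropping the low-count filter gave 0.88 and leaving out single samples 0.71 to 1.40. For gcga between wild-type tissues, leaving out single samples gave 0.055 to 0.84, and for its interaction -1.91 to -1.09. The gcgb interaction was 2.47 with no filter (adjusted p = 0.119, edgeR's quasi-likelihood test) and 2.02 to 2.94 with single samples left out. For gip in mutant EECs the fits without single samples ran from -3.65 to 0.86, with 0.86 for the fit without wild-type EEC replicate 1. The fitted gip difference was 10.02 to 12.09 between wild-type tissues with single samples left out, and 13.71 between mutant tissues with no filter, values that depend on how reads near 0 are handled. The causes were not tested.

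The number of genes called in PECs (2089) ranged from 1148 to 3873 with single samples left out, the highest without wild-type replicate 3. In EECs (780) it was 391 to 678 with single samples left out, 477 at a threshold of 0.05 and 1705 with DESeq2. For the interaction (755) it was 503 to 1017, 480 and 1379. The level of gcga in mutant PECs was 2717 CPM with TMM library sizes.

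Replicate numbers were not taken to pair the samples, as in no comparison were all same-numbered deviations correlated above 0.1: they correlated at -0.138 to -0.0482 in PECs, -0.0868 to 0.0478 in EECs, -0.0754 to 0.0848 between wild-type tissues, and 0.0689, 0.105 and 0.256 between mutant tissues. With a replicate block, gip in mutant EECs was 0.47 (adjusted p = 0.963, edgeR's quasi-likelihood test), the PEC count was 1199, and no other call of the members changed. Depth limits gip in PECs and gcgb in mutant EECs, where 38 reads were the fewest.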
